A study of Mus musculus with 6 samples.

Results

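Slit2 and the genes that lie around it on mouse chromosome 5 were followed in sympathetic cultures in which Slit2 was or was not deleted. The names taken were Slit2, Kcnip4, Pacrgl, Adgra3, Lap3, Med28, Fam184b, Dcaf16, Ncapg and Lcorl, and the table rows carrying those names were read. Of these 10 names, 8 had a row among the 20173 genes of the table, and Dcaf16 was not analysed here. Pacrgl had no row of its own name. The row 5730480H06Rik (ENSMUSG00000029089) covers it, as 1 of the 9 GENCODE transcripts of that row is matched to the RefSeq transcript of Pacrgl, and it was read beside the others, a choice made after the table was seen. Of its 9317 exon bases, 3164 lie inside Pacrgl, so its reads cannot be assigned to Pacrgl alone.

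RNA was sequenced from 3 Slit2fl/fl libraries (genotype label SLIT2f/f) and 3 Slit2th libraries (genotype label SLIT2-knockout). Both groups carried the floxed Slit2 allele, and the Slit2th mice also carried Cre recombinase driven by the tyrosine hydroxylase gene Th, on a C57BL/6J background. By the study's methods, male mice of 3 weeks gave the sympathetic chains, whose cells were cultured for 4 to 5 days, while the isolation protocol names dorsal root neurons and the labels give sympathetic ganglion and neuron. Cre acts only in cells that have expressed Th, and the exons between the loxP sites are not given in the sources used here, so reads from exons that remain are counted for the whole gene. The sources do not state that the libraries came from separate animals, and p-values therefore measure the spread between these libraries.

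Slit2 encodes a large secreted protein that binds the Robo receptors and is best known for repelling growing axons at the midline. Robo receptors pass the signal to the actin skeleton through srGAPs, Nck, Ena/VASP proteins, Abl and Pak. The genes around Slit2 have unrelated work, from peptide trimming (Lap3) to chromosome condensation (Ncapg) and transcription (Med28, Lcorl). They serve here as linked genes, which a deletion limited to Slit2 would leave in place.

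Slit2 (ENSMUSG00000031558) spans bases 47983138 to 48307733 of the plus strand of chromosome 5 (GRCm38, GENCODE M21). It is 324596 bases long with 46 merged exons. Downstream, 5730480H06Rik begins 20.2 kb after its end (48327952 to 48414294, plus strand), Kcnip4 begins 81.8 kb after it (48389502 to 49524907, minus strand), and Adgra3 lies at 49959956 to 50059006 on the minus strand. Upstream, Lcorl (45697181 to 45857615, minus strand), Ncapg (45669919 to 45700546, plus strand), Fam184b (45529705 to 45639614, minus strand), Med28 (45520229 to 45529276, plus strand) and Lap3 (45493374 to 45512691, plus strand) form a cluster whose 5′ ends lie between 2.13 and 2.49 Mb from that of Slit2. Ncapg and Lcorl overlap tail to tail over 944 exon bases on opposite strands. The strand setting of the counting is not given in the sources used here, so reads from those bases cannot be told apart.

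The start regions of Slit2, of Pacrgl, whose row is the nearest neighbour with enough counts to test, and of Ncapg, the neighbour with the highest fold change, are printed to show that these linked genes have start regions of their own that differ in sequence. They come from RefSeq (GRCm38.p6), which held windows for 9 of the 10 names, each running from 250 bases before to 50 bases after a gene's start, 5′ to 3′ on the gene's strand. The window of Pacrgl lies inside the row 5730480H06Rik, which begins at 48327952, so it is not the start region of that row. Capitals mark 1 motif in each window, namely TATAAA in Slit2 (chr5:47982905-47983204, plus strand), CCAAT or its reverse complement in Pacrgl (chr5:48372142-48372441, plus strand), and TTTGAA in Ncapg (chr5:45669675-45669974, plus strand).
Slit2: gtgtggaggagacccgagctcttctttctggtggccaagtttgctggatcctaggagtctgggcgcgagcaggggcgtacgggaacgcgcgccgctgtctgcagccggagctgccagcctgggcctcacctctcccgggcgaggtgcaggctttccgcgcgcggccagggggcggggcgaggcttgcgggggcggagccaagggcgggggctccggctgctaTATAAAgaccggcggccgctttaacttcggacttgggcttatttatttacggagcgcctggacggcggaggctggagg
Pacrgl: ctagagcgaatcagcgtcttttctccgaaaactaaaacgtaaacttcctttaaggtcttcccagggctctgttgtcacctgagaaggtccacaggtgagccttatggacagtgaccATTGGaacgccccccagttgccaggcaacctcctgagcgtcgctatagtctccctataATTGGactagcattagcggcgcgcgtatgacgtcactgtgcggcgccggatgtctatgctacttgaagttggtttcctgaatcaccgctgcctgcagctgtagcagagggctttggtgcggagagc
Ncapg: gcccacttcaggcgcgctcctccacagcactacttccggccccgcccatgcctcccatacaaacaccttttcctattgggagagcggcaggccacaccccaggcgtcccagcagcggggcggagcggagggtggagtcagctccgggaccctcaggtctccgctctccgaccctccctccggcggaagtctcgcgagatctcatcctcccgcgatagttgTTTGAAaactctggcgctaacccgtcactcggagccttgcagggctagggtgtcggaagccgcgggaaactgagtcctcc
TATAAA, the core of the TATA box, began at position -28 from the start of Slit2. It was found on either strand in 13.6% of the 32851 windows of all genes, that of Med28 among them. TTTGAA, the letters of the cell cycle homology region, began at position -30 in Ncapg and was found in 17.9% of all windows, with 2 matches in 1 window of Lcorl. CCAAT occurred 2 times in Pacrgl, 2 times in 1 window of Kcnip4, and once each in Med28 and, unmarked here, in Ncapg, and it was found in 37.4% of all windows. CACGTG, an E-box found in 7.15% of them, occurred in the windows of Lap3, Med28 and Fam184b and in 1 of the 2 windows of Lcorl. The motifs do not share letters with one another in the marked places. The Slit2 window held 30 CpG dinucleotides and 68.0% GC, against a median of 7 CpG and 52.7% GC over all windows, and those of Lap3 (33 CpG) and Adgra3 (34 CpG) held more. These matches are descriptions of letters, and nothing about factor binding was measured.

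The libraries held 1255939 to 3155406 counts, so a floor of 3 counts stood at 0.951 to 2.39 CPM (counts scaled to a common library size), which covers counting error only. Counts were scaled by TMM and 12152 genes with at least 1 CPM in at least 3 libraries were tested. The labelled neuronal identity was only partly seen, since Th, Nefh, Chga, Ret and Gal were at 0 counts in all 6 libraries. The summed CPM of 26 sympathetic neuron markers was 210 to 606 in Slit2fl/fl and 207 to 226 after deletion, against 13559 to 25927 and 16189 to 24405 for 21 glial markers. The 21 fibroblast markers summed to 14169 to 21973 CPM in Slit2fl/fl against 22749 to 25328 in Slit2th, and the 15 macrophage markers to 34.1 to 129.7 and 130.2 to 674, so both sums were higher in every Slit2th library. Most of the fibroblast sum was Vim alone, at 11358 to 18049 CPM in Slit2fl/fl and 17745 to 19715 in Slit2th, with overlapping groups. Replicate 1 of each group stood apart: Slit2fl/fl replicate 1 correlated at 0.788 to 0.863 (Pearson's r of log2 CPM across genes) with the other libraries and Slit2th replicate 1 at 0.818 to 0.874, against 0.916 to 0.965 among the remaining 4. In such bulk cultures, fewer cells of a type and less RNA per cell cannot be told apart.

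Slit2, the deleted gene, had 139, 85 and 77 counts in Slit2fl/fl replicates 1 to 3 against 17, 24 and 27 in Slit2th. After scaling these were 44.5, 55.1 and 43.8 CPM against 15.0, 11.5 and 15.2 CPM. Every Slit2th library lay below every Slit2fl/fl library, and the highest Slit2th value was well under the lowest control. The control mean was 47.8 ± 6.33 CPM (SD, n = 3), and the Slit2th mean was 13.9 ± 2.12 CPM (SD, n = 3). This is a log2 fold change of -1.78 (SE 0.37, 95% interval -2.62 to -0.94), which leaves 29.1% of the control level with an interval of 16.3 to 52.0%. In edgeR's quasi-likelihood test the unadjusted p was 0.000933, and the Benjamini-Hochberg adjusted p over all genes tested was 0.422, short of the threshold of 0.05. The two-sided exact permutation test of log2 CPM gave p = 0.10, the smallest that 3 libraries against 3 allow. DESeq2 gave an adjusted p of 0.0570 for Slit2 and edgeR's exact test 0.0837.

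No gene of the 12152 passed the adjusted threshold in edgeR's quasi-likelihood test (0%), while 824 (6.78%) were lower and 485 (3.99%) higher in Slit2th at an unadjusted p under 0.05. DESeq2 called 31 genes and edgeR's exact test 17. Among the tested members, 1 of 6 was lower at that unadjusted p, namely Slit2, and 0 were higher. Slit2 ranked 18th by p among all genes. It was not among the most extreme by size, since 232 of the 7483 genes with a mean of at least 10 CPM had a lower log2 fold change. Without replicate 1 of both groups, an alternative added after seeing the data, the log2 fold change of Slit2 was -1.90 (SE 0.33) and its adjusted p by edgeR was 0.00689, in a fit that called 377 of 11473 genes (3.29%).

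**Figure D1:**
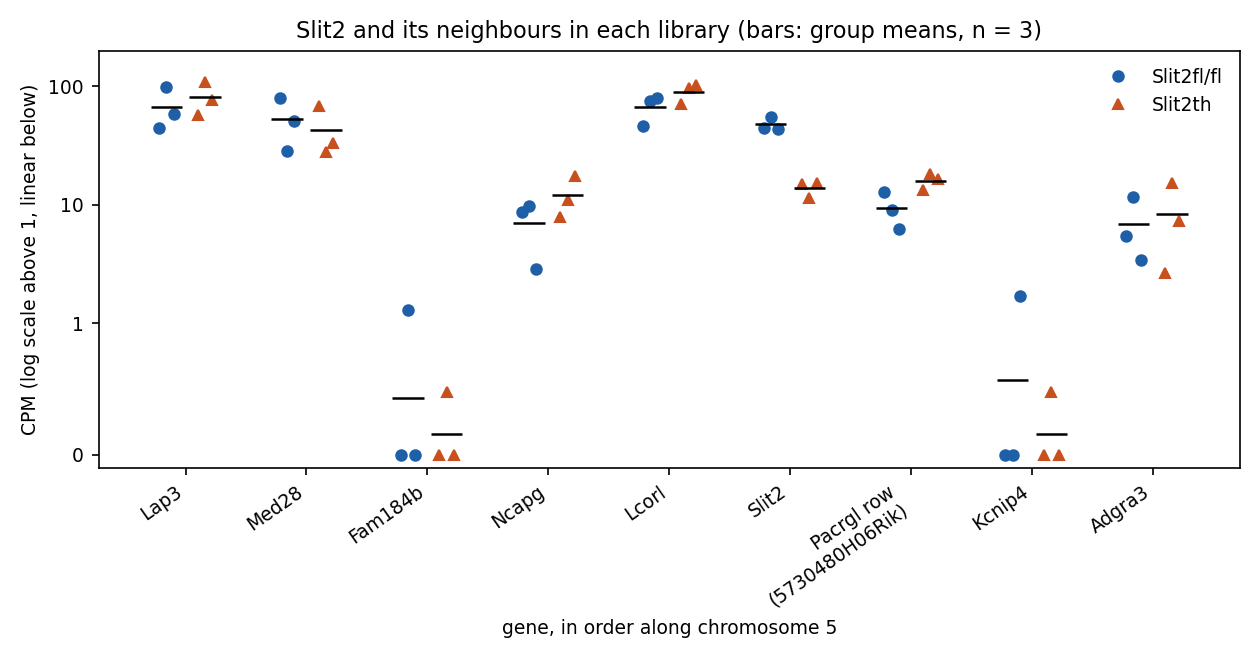
CPM after TMM scaling in each of the 6 libraries (y axis, log scale above 1 and linear below) for Slit2 and its neighbours in their order along chromosome 5, with circles for Slit2fl/fl, triangles for Slit2th and bars for group means (n = 3). The Slit2th triangles of Slit2, at 11.5 to 15.2 CPM, sit below its circles at 43.8 to 55.1 CPM, while the other members overlap between groups and 5730480H06Rik is higher in Slit2th.

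The nearest neighbour tested, 5730480H06Rik, was not lower in Slit2th. It had 40, 14 and 11 counts in the Slit2fl/fl libraries against 15, 38 and 29 in Slit2th, or 12.8, 9.07 and 6.25 CPM against 13.2, 18.1 and 16.4 CPM. The groups did not overlap, with every Slit2th library higher, though the lowest of them was only just above Slit2fl/fl replicate 1. Over all genes, 8.74% did not overlap in this direction and 9.72% in the other. Its log2 fold change was 0.75 (SE 0.45, 95% interval -0.27 to 1.77) with an adjusted p of 0.537 by edgeR's quasi-likelihood test, and the exact permutation p was 0.10. Kcnip4, which encodes a protein that binds A-type potassium channels and is expressed mainly in neurons, had 0, 0 and 3 counts in the Slit2fl/fl libraries against 0, 1 and 0 in Slit2th. It did not pass the filter on low values, so no change in it was detectable at this depth, and 168 of its exon bases overlap 5730480H06Rik on the other strand.

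Adgra3, an adhesion G protein-coupled receptor 2.08 Mb downstream, varied more within groups than between them. Its counts were 17, 18 and 6 in Slit2fl/fl against 3, 32 and 13 in Slit2th, which is 5.44, 11.7 and 3.41 CPM against 2.65, 15.3 and 7.34 CPM. The lowest and the highest value were both in Slit2th. Adgra3 had a log2 fold change of 0.36 (SE 0.70, 95% interval -1.23 to 1.95) with an adjusted p of 0.846 by edgeR. Its direction rested on single libraries, as the value was -0.03 without Slit2fl/fl replicate 3 and -0.38 without Slit2th replicate 2.

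In the upstream cluster, Lap3, a leucine aminopeptidase that trims peptides, had 139, 151 and 103 counts in the Slit2fl/fl libraries against 65, 228 and 135 in Slit2th. In CPM these were 44.5, 97.9 and 58.6 against 57.4, 108.8 and 76.2. The groups overlapped, and the Slit2th values ran slightly above. Lap3 had a log2 fold change of 0.28 (SE 0.42, 95% interval -0.67 to 1.22) with an adjusted p of 0.800 by edgeR. Lcorl, which encodes a DNA-binding transcription regulator and is known from association studies of body size, had 145, 117 and 141 counts in the Slit2fl/fl libraries against 81, 203 and 181 in Slit2th, or 46.4, 75.8 and 80.2 CPM against 71.5, 96.9 and 102.2 CPM. Slit2th replicate 1 lay inside the control range and the other two above it. Its log2 fold change was 0.42 (SE 0.36, 95% interval -0.39 to 1.24) with an adjusted p of 0.641 by edgeR.

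Med28, a subunit of the Mediator complex that links transcription factors to RNA polymerase II, was the only tested neighbour with a negative fold change. It had 247, 44 and 90 counts in the Slit2fl/fl libraries against 77, 58 and 59 in Slit2th, or 79.1, 28.5 and 51.2 CPM against 68.0, 27.7 and 33.3 CPM. The groups overlapped widely, with Slit2fl/fl replicate 1 highest. For Med28 the log2 fold change was -0.32 (SE 0.50, 95% interval -1.45 to 0.82) with an adjusted p of 0.809 by edgeR, and it was 0.11 without Slit2fl/fl replicate 1. Of the 29 Mediator genes tested (30 in the table), 16 were negative and 13 positive, with a median of -0.14 against -0.05 for all genes. At an unadjusted p under 0.05 by edgeR 3 were lower (10.3%, against 6.78% of all genes) and 2 higher (6.90%, against 3.99%), and none passed the adjusted threshold. The Mediator subunits with the highest mean CPM had log2 fold changes of -1.49 (Med8), 0.90 (Med13) and -0.16 (Med21).

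Ncapg, the G subunit of condensin I, which compacts chromosomes in mitosis, had 27, 15 and 5 counts in the Slit2fl/fl libraries against 9, 23 and 31 in Slit2th. These were 8.65, 9.72 and 2.84 CPM against 7.94, 11.0 and 17.5 CPM. The groups overlapped, with the lowest value in Slit2fl/fl replicate 3 and the highest in Slit2th replicate 3. For Ncapg the log2 fold change was 0.78 (SE 0.58, 95% interval -0.52 to 2.08) with an adjusted p of 0.599 by edgeR. The other condensin I subunits had log2 fold changes of -0.57 (Smc2), 0.20 (Smc4), -0.81 (Ncapd2) and -0.70 (Ncaph), and none of the 5 was past an unadjusted p of 0.05. Condensin genes are most active in dividing cells, and the 18 proliferation markers summed to 553 to 594 CPM in Slit2fl/fl against 222 to 402 in Slit2th, with 17 of 18 negative, a median of -0.90 and 6 lower at an unadjusted p under 0.05 by edgeR (33.3%), where 52.2% of all genes were negative and 6.78% lower at that p. How far this bears on Ncapg, whose own value was positive and whose last exons overlap Lcorl, was not tested. Fam184b, a little-studied coiled-coil protein gene, had 0, 2 and 0 counts in the Slit2fl/fl libraries against 0, 1 and 0 in Slit2th and did not pass the filter.

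**Figure D2:**
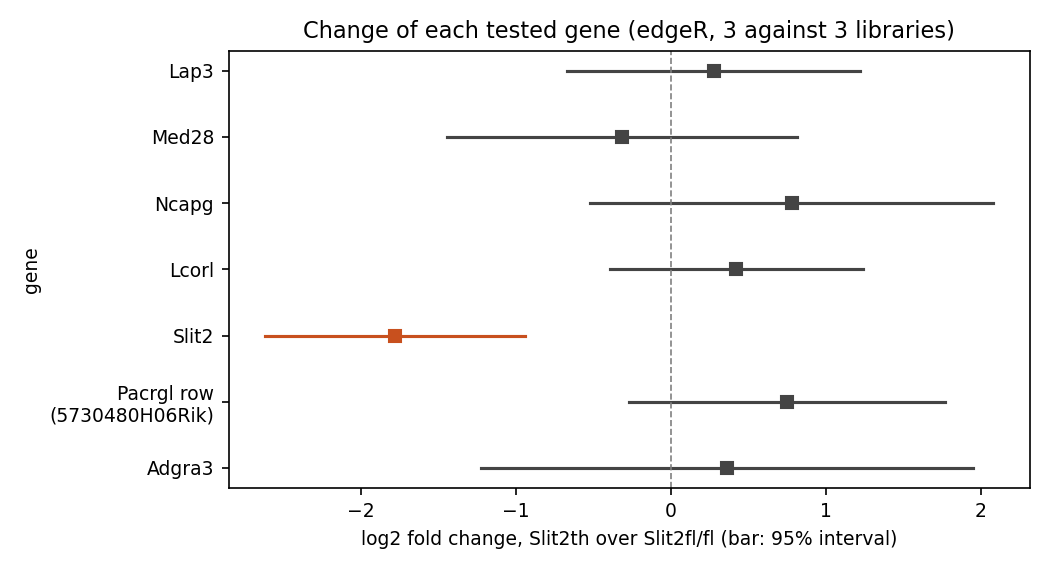
Log2 fold change (x axis, Slit2th over Slit2fl/fl) with its 95% interval for the 6 members tested and 5730480H06Rik, from edgeR's quasi-likelihood fit on 3 against 3 libraries, ordered along chromosome 5. Slit2 at -1.78 is the only interval that excludes 0, and the intervals of the other genes, which begin at -1.45 (Med28) or higher, do not reach -1.78. The interval of Slit2 itself (-2.62 to -0.94) overlaps those of Med28 and Adgra3.

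Across the 5 tested neighbours, 4 log2 fold changes were positive and 1 was negative, with a median of 0.36, and 0 were past either threshold by edgeR. Over all genes tested, 52.2% were negative and the median was -0.05. With Slit2 itself, 2 of the 6 members were negative, and 1 of the 6 (16.7%) had groups that did not overlap, again Slit2. Over all genes tested, groups did not overlap for 9.72% downward and 8.74% upward. The interval of each of the 5 neighbours and of 5730480H06Rik excluded the -1.78 of Slit2, but the intervals still allow falls of up to 1.45 on the log2 scale for Med28 (-1.45) and 1.23 for Adgra3 (-1.23). The -1.78 has its own error, and the interval of Slit2 (-2.62 to -0.94) overlaps those of Med28 and Adgra3. These intervals alone therefore do not separate the changes of Med28 and Adgra3 from that of Slit2. Without replicate 1 of both groups the values were 0.60 (Adgra3), 0.23 (Lap3), -0.41 (Med28), 1.17 (Ncapg) and 0.34 (Lcorl), and none passed the adjusted threshold.

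The ratio of Slit2 to a neighbour within a library does not depend on scaling between libraries. Slit2 counts were 56.3% to 100% of Lap3 counts in the control libraries and 10.5% to 26.2% in Slit2th. Relative to Med28 they were 56.3%, 193% and 85.6% against 22.1%, 41.4% and 45.8%. The log2 ratio of Slit2 to Lcorl was -0.06, -0.46 and -0.87 in the controls against -2.22, -3.05 and -2.72. For each of these neighbours, every Slit2th ratio was below every Slit2fl/fl ratio. The mean difference in log2 ratio (Slit2th minus Slit2fl/fl, 0.5 added to each count) was -2.06 for Lap3, -2.20 for Lcorl, -1.47 for Med28, -2.63 for Ncapg and -2.56 for 5730480H06Rik, each with a two-sided exact permutation p of 0.10, the smallest possible here. For Adgra3 it was -1.95 with overlapping groups and an exact permutation p of 0.20. These 6 comparisons share the Slit2 counts, so they are not separate tests of it, and none could pass 0.05 with 3 libraries a group.

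**Figure D3:**
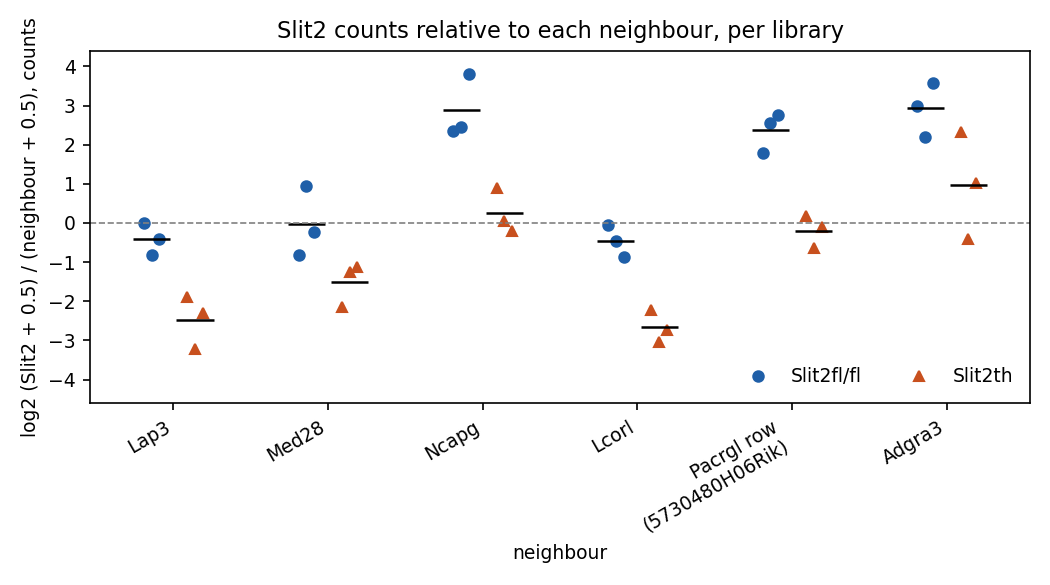
Log2 ratio of Slit2 counts to the counts of each neighbour (y axis, 0.5 added to each) in every library, with circles for Slit2fl/fl, triangles for Slit2th and bars for group means (n = 3). The triangles lie below the circles for all neighbours drawn except Adgra3, where Slit2th replicate 1 at 2.32 is above Slit2fl/fl replicate 2 at 2.21.

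Per kilobase of merged exon, Lap3 had the highest level in Slit2fl/fl at 21.6 ± 8.93 CPM per kb (SD, n = 3). Med28 followed at 10.6 ± 5.06, Lcorl at 3.58 ± 0.97 and Slit2 at 1.88 ± 0.25 CPM per kb. Below them were 5730480H06Rik at 1.01, Ncapg marginally under it, Adgra3 at 0.843, Kcnip4 at 0.157 and Fam184b at 0.0503 CPM per kb. The libraries of Slit2 overlapped neither those of Lcorl above it nor those of 5730480H06Rik below it, while Lap3 overlapped Med28 and the genes from 5730480H06Rik down each overlapped the next. In Slit2th, Slit2 stood at 0.546 ± 0.083 CPM per kb, behind Lap3, Med28, Lcorl, Ncapg, 5730480H06Rik and Adgra3, and its libraries overlapped those of Adgra3. In that group it was still above Kcnip4 and Fam184b in every library. Slit2 thus went from the 4th to the 7th level of 9, while the 3 highest genes kept their order. Merged exons join all annotated transcripts of a gene (25.4 kb for Slit2, 18.9 kb for Lcorl and 3.10 kb for Lap3). The order of genes within a group therefore depends on the annotation.

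Genes in wider windows around Slit2 were described by the same fit. Within 1 Mb of the 5′ end of Slit2 1 other gene was tested, 5730480H06Rik. Within 5 Mb 25 were tested, of which 5 were negative and 20 positive (median 0.42). Within 10 Mb 39 were tested, of which 12 were negative (30.8%) and 27 positive, with a median of 0.36. The 14 of them between 5 and 10 Mb were evenly divided, 7 negative and 7 positive, with a median of 0.09. None of the 39 was lower at an unadjusted p under 0.05 by edgeR or had groups apart in the downward direction, against 6.78% and 9.72% of all genes, and 7 had groups apart upward, against 8.74% of all genes. In fits without a single library, 3 of these genes were lower at an unadjusted p under 0.05, 1 in each fit. They were Ldb2 (-1.60, adjusted p 0.666 by edgeR) without Slit2fl/fl replicate 1, Sod3 (-1.27, adjusted p 0.476 by edgeR) without Slit2fl/fl replicate 3 and Smim20 (-1.53, adjusted p 0.368 by edgeR) without Slit2th replicate 1. With no filter on low counts, C130083M11Rik, which failed the filter and was not among the 39, was lower too (-5.03, unadjusted p 0.02255 and adjusted p 0.360 by edgeR). Slit2 had the lowest value of the 40 genes within 10 Mb that passed the filter, though some genes farther out were lower, as given below. The intervals of 9 of the other 39 reached -1.78, so a fall of that size is not excluded for them. Without replicate 1 of both groups 38 were tested with a median of 0.13, and 1 gene, Smim20 (-1.38, unadjusted p 0.0172 and adjusted p 0.176 by edgeR), was lower at an unadjusted p under 0.05, beside 5 that were higher, 5730480H06Rik (1.16) among them.

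Zfp518b, a zinc finger gene 9.30 Mb upstream, was the only one of the 39 past an unadjusted p of 0.05. It had 17, 30 and 15 counts in the Slit2fl/fl libraries against 295, 27 and 19 in Slit2th. Its log2 fold change of 3.10 (SE 1.19) rested on Slit2th replicate 1, and it was 0.12 (SE 0.62) without that library. Farther out, the 125 genes tested between 10 and 20 Mb had a median of -0.24. At an unadjusted p under 0.05 by edgeR 11 were lower (8.80%, against 6.78% of all genes) and 0 higher (against 3.99%). Groups were apart downward in 19 (15.2%, against 9.72% of all genes) and upward in 8 (against 8.74% of all genes). Of these 125 genes, 78 were negative and 47 positive, and some lay below the -1.78 of Slit2. The lowest were Add1 (-3.51, SE 1.25), Lrpap1 (-2.61, SE 0.85) and Atraid (-2.51, SE 0.73). In each of these Slit2fl/fl replicate 1 was highest, Add1 had overlapping groups, and none passed the adjusted threshold. The positive median was not found over the wider window of 20 Mb (-0.15, 164 genes). The other 608 tested genes of chromosome 5 had a median of -0.04 and those of other chromosomes -0.05.

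Base composition moved with these values. Across all genes, the log2 fold change had a Spearman correlation of -0.344 with the GC content of the longest transcript, a description over genes that share the same 6 libraries. The third of the genes with the lowest GC content had a median log2 fold change of 0.25, and the 39 genes within 10 Mb had a median GC content of 45.4% against 48.8% for all genes. Ncapg (34.8% GC), Lcorl (36.7%) and 5730480H06Rik (39.0%) were low in GC, and these were the highest fold changes among the neighbours. Adgra3, at 52.5% GC, was above the median of all genes and still positive (0.36), and Lap3 had 47.6% GC and a value of 0.28. Slit2 itself had 45.5% GC and Med28 45.7%. The part of base composition in the positive values was not tested.

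**Figure D4:**
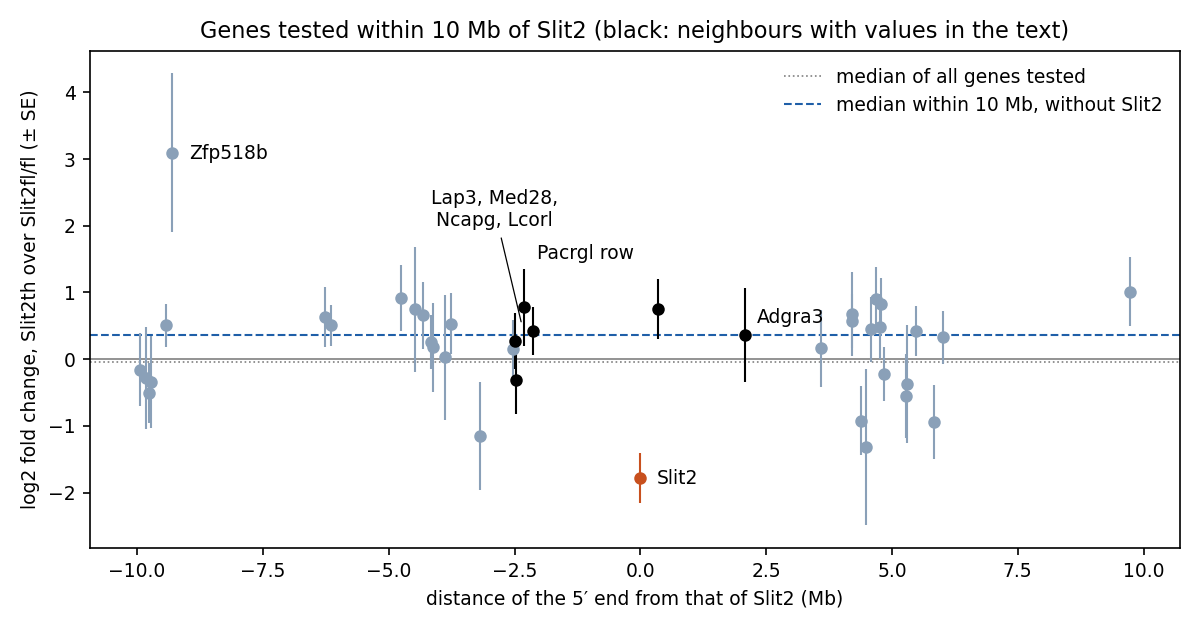
Log2 fold change with its SE (y axis, Slit2th over Slit2fl/fl) against the distance of each gene's 5′ end from that of Slit2 in Mb (x axis) for the 40 genes tested within 10 Mb, with Slit2 in orange and its neighbours in black. Slit2 at -1.78 is the lowest point, the dashed line marks the median of the other 39 at 0.36 and the dotted line that of all genes at -0.05.

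The other Slit and Robo genes were few or low. Slit1 and Robo3 were at 0 counts in every library, and Robo4 had 2 counts in all. Slit3, another Robo ligand, had 13, 1 and 2 counts in the Slit2fl/fl libraries against 1, 12 and 7 in Slit2th (log2 fold change 0.76, SE 0.88, adjusted p 0.735 by edgeR). Robo1 had 0, 2 and 18 counts against 2, 3 and 0 (-1.80, SE 1.48, adjusted p 0.631 by edgeR), a value set by Slit2fl/fl replicate 3. Robo2 was the best measured receptor at 9.83 ± 7.34 CPM in the controls and 12.2 ± 7.05 CPM after deletion (SD, n = 3), with a log2 fold change of 0.38 (SE 0.72) and an adjusted p of 0.841 by edgeR. Of the 4 genes of this family that were tested, Slit2 alone was past an unadjusted p of 0.05. Of 11 other genes of this signalling, which were cytoplasmic effectors and the surface proteins Gpc1 (-0.71) and Dag1 (-0.28), 6 were negative and 5 positive. The adaptor Nck1 (0.96, unadjusted p 0.0440 by edgeR) was the 1 past that p, against 3.99% of all genes higher and 6.78% lower.

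Among the 7482 other genes with a mean of at least 10 CPM, genes whose pattern over the 6 libraries was among the nearest to that of Slit2 lay elsewhere in the genome. By the root mean square difference of centred log2 CPM they included Cox7a1 (0.209, chromosome 7), Snrpg (0.261, chromosome 6), Tmem138 (0.265, chromosome 19) and Ndufa1 (0.278, chromosome X). The linked genes ranked far behind, with Med28 at 0.934 (rank 2815), Lap3 at 1.10 (rank 4525), Lcorl at 1.12 (rank 4748) and 5730480H06Rik at 1.28 (rank 5987). This measure includes the difference between the groups, so these ranks largely restate the fold changes above and are not a separate result. Adgra3 and Ncapg were under that CPM minimum in the comparison.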

How the data were processed

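Libraries were sequenced from total RNA. The authors aligned the reads with HISAT2, to mm10 by the paper, while the submitters' processing notes name GRCm39, and deposited whole-number read counts per gene for 20173 genes, not normalized. The counting program, strand setting and annotation release are not given in the sources used here. Positions, exon lengths and transcript GC content come from GENCODE M21 (GRCm38), which held 20166 of the identifiers, 7 of them on unplaced scaffolds. They locate genes and did not enter the counts.

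The software was edgeR 4.0.16, DESeq2 1.42.0 and limma 3.58.1, run in R 4.3.3. A gene was tested if 3 or more libraries had 1 CPM or more. Counts were scaled by TMM and compared with edgeR's quasi-likelihood test over the whole table, with no covariate and Benjamini-Hochberg adjusted p under 0.05 as the threshold. The biological coefficient of variation was 50.4%. For this test, the standard error was derived as the absolute log2 fold change divided by the square root of the F statistic. Intervals of 95% used that derived standard error and the total degrees of freedom. Single values and Slit2-to-neighbour ratios were compared by two-sided exact permutation tests. The fit was also run on simulated counts with known changes. The outcome of that run is not reported here, and it is no evidence of power at the spread of these libraries.

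The members and lists were chosen with earlier results of these data known. Genes named were the members, the Slit and Robo family, the 5 genes most like Slit2, genes tested within 1 Mb or at an unadjusted p under 0.05 within 10 Mb, the condensin I subunits, the 3 Mediator subunits with the highest mean CPM, and Th. Vim was named as the fibroblast marker with the highest mean CPM. Gpc1, Dag1, Nck1, Ldb2, Sod3, Smim20, C130083M11Rik, Add1, Lrpap1 and Atraid, and the marker genes at 0, were named after their values were seen. Not every gene chosen in this way is reported here. The alternatives were other scalings, filters and tests, a block for the replicate number, and fits without single libraries.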

Additional observations from a re-analysis of the deposited data

How the results depend on the processing

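The log2 fold change of Slit2 stayed negative in all 19 alternatives, from -1.91 to -1.58, with adjusted p from 0.00689 to 0.821. It passed the threshold in 1 of them, without replicate 1 of both groups (-1.90). Under a replicate block it was -1.78 with an adjusted p of 0.221 by edgeR. Deviations of libraries with the same number correlated at 0.292, 0.245 and 0.0808, the last under 0.1, so the numbers were not taken to pair the samples, and not every library correlated best with its own number.

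The number of genes called was 7 with no filter on low counts, 31 by DESeq2, 17 by edgeR's exact test, 377 without replicate 1 of both groups and 0 to 1 with a single library left out. The median within 10 Mb ran from 0.21 to 0.53 with a single library left out and was 0.13 without replicate 1 of both groups. The number within 10 Mb at an unadjusted p under 0.05 was 3 with no filter (1 of them, C130083M11Rik, lower in Slit2th), 0 by DESeq2 and 2 with the replicate block. It was 1 to 3 with a single library left out (0 to 1 of them lower in Slit2th) and 6 without replicate 1 of both groups. None passed the adjusted threshold in any setting run. With a single library left out, Adgra3 ran from -0.38 (without Slit2th replicate 2) to 0.94 and was -0.03 without Slit2fl/fl replicate 3, and Med28 ran from -0.80 to 0.11 (without Slit2fl/fl replicate 1). Lap3, Ncapg, Lcorl and 5730480H06Rik stayed positive in all 19 alternatives, and the 6 ratios kept their sign in all 7 of theirs. Apart from the fewer libraries or other tests themselves, the cause of these shifts was not tested. Depth limits Kcnip4 and Fam184b, which lay at or near the floor.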
